A study of Mus musculus with 12 samples.

Results

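A set of 48 genes that work in mitosis, from the cyclins and kinases that start it to the motors, kinetochore and condensin proteins that move and shape the chromosomes, was followed in the small intestine of mice that had lost Apc, p53 or both. The genes were taken from a list of symbols, each represented by its brightest probe set (mean of log2 signals, 12 arrays), which gave 48 of the 17606 genes that could be named on the array. All 48 had a probe set and all 48 passed the screen, a detection p-value under 0.2 on at least 1 array, so none was lost through low signal.

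At entry into mitosis the kinase Cdk1, bound to cyclin A or cyclin B, phosphorylates proteins that condense the chromosomes and build the spindle. The spindle checkpoint then holds the cell until every kinetochore is attached to microtubules, after which Cdc20 and the anaphase-promoting complex (cyclosome) release separase and the sister chromatids part. In the small intestine dividing cells lie in the crypts, Wnt signalling keeps them dividing, and Apc restrains Wnt signalling by promoting the destruction of β-catenin.

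All mice carried AhCre, a Cre recombinase driven by the Cyp1a promoter, and all received β-naphthoflavone, which induces it, at 80 mg/kg. The sample labels give 3 injections in 1 day and the methods give daily injections, and intestines were taken at day 5. Control mice had wild-type Apc and p53, Apc-deficient mice had both Apc alleles flanked by loxP sites, p53-deficient mice were p53-null, and double-deficient mice were p53-null with both Apc alleles floxed. There were 3 mice per genotype and 1 Affymetrix array of total small intestinal RNA per mouse. Apc was therefore lost only where Cre had acted in the adult, while p53 was absent from every cell of the animal from birth. In RNA of whole tissue, more cells that express a gene and more RNA per cell cannot be told apart.

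Values below are scaled signals, linear intensities after each array was centred on its mean log2 signal, given in the order of replicates 1 to 3. Differences are on the log2 scale with the standard error (SE), and adjusted p-values come from limma over all 36336 probe sets that passed the screen. A gene was called at an adjusted p under 0.05, and where a pair of differences is given together, Apc-deficient against control comes first and double-deficient against control second. Before scaling, the median log2 difference of all these probe sets from control was −0.67 with Apc loss, −0.56 with p53 loss and −0.25 with both, so every change is relative to that shift. A p53 probe set had scaled signals of 190 to 393 on the 6 arrays of mice with p53 and of 3.53 to 15.1 on the 6 arrays of p53-null mice. All 8 markers of small intestinal epithelium were detected on all 12 arrays. Transcripts of the exocrine pancreas stood high on control replicate 3 and double-deficient replicate 3, with median log2 signals of 12.69 and 11.02 over 12 genes against 4.96 to 6.23 on the other 10 arrays.

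Upstream of many mitotic genes lie the CCAAT box, bound by NF-Y, and the cell cycle genes homology region (CHR), through which such genes are held silent outside G2 and mitosis. RefSeq promoters (GRCm38.p6, 250 bases before to 50 after the start) were found for 40 of the 48 genes and searched on both strands for CCAAT, for the CHR letters TTTGAA and for the E2F site TTTCCCGC. A CCAAT was present in 31 of 40 (77.5%), against 41.1% of the 27025 genes in the table, and a TTTGAA in 28 of 40 (70.0%), against 20.2%. Both were present in 25 of 40, against 8.97% of genes. The TTTGAA lay within 50 bases of the start in 25 of 40 (62.5%), against 5.72% of genes, while the E2F letters were present in 1 of 40 (Ncapg), against 1.24%. Over all 32851 promoters, some genes having several, the shares were 37.4% for CCAAT, 17.9% for TTTGAA and 1.07% for the E2F letters. These shares describe letters in a window and were not tested.

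For each comparison, at most 2 called genes with the most matches were chosen for the sequences that follow. They were taken from the genes of highest signal in their role and those of largest or smallest difference from control. Racgap1 was chosen for double-deficient against p53-deficient intestines. Capitals mark CCAAT or TTTGAA, or their reverse complements ATTGG and TTCAAA, and each run is read 5′ to 3′ along the gene, all 4 of which lie on the minus strand. The Top2a run is chr11:99024195-99024428 and holds 6 CCAAT boxes and 2 CHR matches. The Mki67 run is chr7:135716460-135716579 and holds 3 and 2. For Cdca8, chr4:124936888-124937014 holds 4 and 1, the last ATTGG sharing its A with the CHR, and for Racgap1, chr15:99651634-99651680 holds 1 of each.
Top2a: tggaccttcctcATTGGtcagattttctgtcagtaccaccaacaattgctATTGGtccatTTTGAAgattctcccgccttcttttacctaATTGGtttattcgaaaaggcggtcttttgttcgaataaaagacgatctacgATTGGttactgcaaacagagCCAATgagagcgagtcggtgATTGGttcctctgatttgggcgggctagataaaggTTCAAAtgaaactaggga
Mki67: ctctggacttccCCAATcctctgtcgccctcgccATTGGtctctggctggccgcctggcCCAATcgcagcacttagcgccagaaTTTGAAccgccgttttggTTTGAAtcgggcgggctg
Cdca8: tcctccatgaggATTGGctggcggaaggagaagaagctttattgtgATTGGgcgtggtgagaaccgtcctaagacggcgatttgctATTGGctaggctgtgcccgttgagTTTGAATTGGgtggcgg
Racgap1: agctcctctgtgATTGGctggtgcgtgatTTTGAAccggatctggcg

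Loss of Apc alone raised most of the set. In Apc-deficient intestines 38 of the 48 genes were higher than in control intestines and 0 were lower, where 15.7% of all probe sets passed upward and 10.7% downward. The median log2 difference over the 48 genes was 1.08, against 0.0018 over all probe sets, and the arrays of the 2 genotypes did not overlap for 42 genes, all higher, against 23.4% of all probe sets. The 10 genes that did not pass were Cdc25b, Aurka, Foxm1, Nuf2, Birc5, Kif22, Kif23, Ncapd2, Ube2c and Pttg1. The scaling moved the count. With no scaling between arrays 10 genes were called, all higher, where 34.0% of all probe sets were called in either direction, and the median over the 48 genes was 0.40 against −0.67 over all probe sets. The count was 20 without control replicate 1 and 25 without Apc-deficient replicate 3, where 15.1% and 20% of all probe sets were called. It was 25, where 14.8% of all were called, without control replicate 3 and double-deficient replicate 3, the arrays high in pancreas transcripts. With all 12 arrays and the scaling used, 26.4% were called.

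Combined loss moved the set the same way with fewer calls. In double-deficient intestines 20 of the 48 genes were higher than in control and 0 were lower, where 8.9% of all probe sets passed upward and 6.04% downward. All 48 differences were above 0 with the scaling used, though Foxm1 and Kif22 were below 0 with no scaling and in the deposited normalised table. The median was 0.86 against −0.0036 over all probe sets, and the arrays did not overlap for 39 genes, all higher, against 23% of all probe sets. Both comparisons use the same 3 control arrays, so they are not independent. The count of 20 rested on single arrays. It was 2, 11 and 7 without control replicates 1, 2 and 3, 5, 0 and 12 without double-deficient replicates 1, 2 and 3, and 1 without both arrays high in pancreas transcripts. In the same order, 5.63%, 8.26% and 7.49% of all probe sets were called, then 10.3%, 4.18% and 8.36%, and 2.17% without both pancreas-rich arrays. With no scaling 4 genes were called, where 9.14% of all probe sets were called, with a median of 0.61 against −0.25 over all probe sets. A permutation method (SAM) called 26 genes in each comparison, where it called 19.3% and 24% of all probe sets. At an adjusted p under 0.02 by limma, 27 and 4 genes were called, where 10.2% and 4.06% of all probe sets were higher. The study used the same rate as a false discovery rate of SAM, so its counts are not comparable with these. Calls of single genes also depended on the processing and on the arrays kept. They were followed for 30 genes, chosen by signal, by difference from control or by disagreement of probe sets. In Apc-deficient intestines 24 of them were called, 8 in every alternative setting. In double-deficient intestines 15 were called, 0 in every alternative setting.

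**Figure D1:**
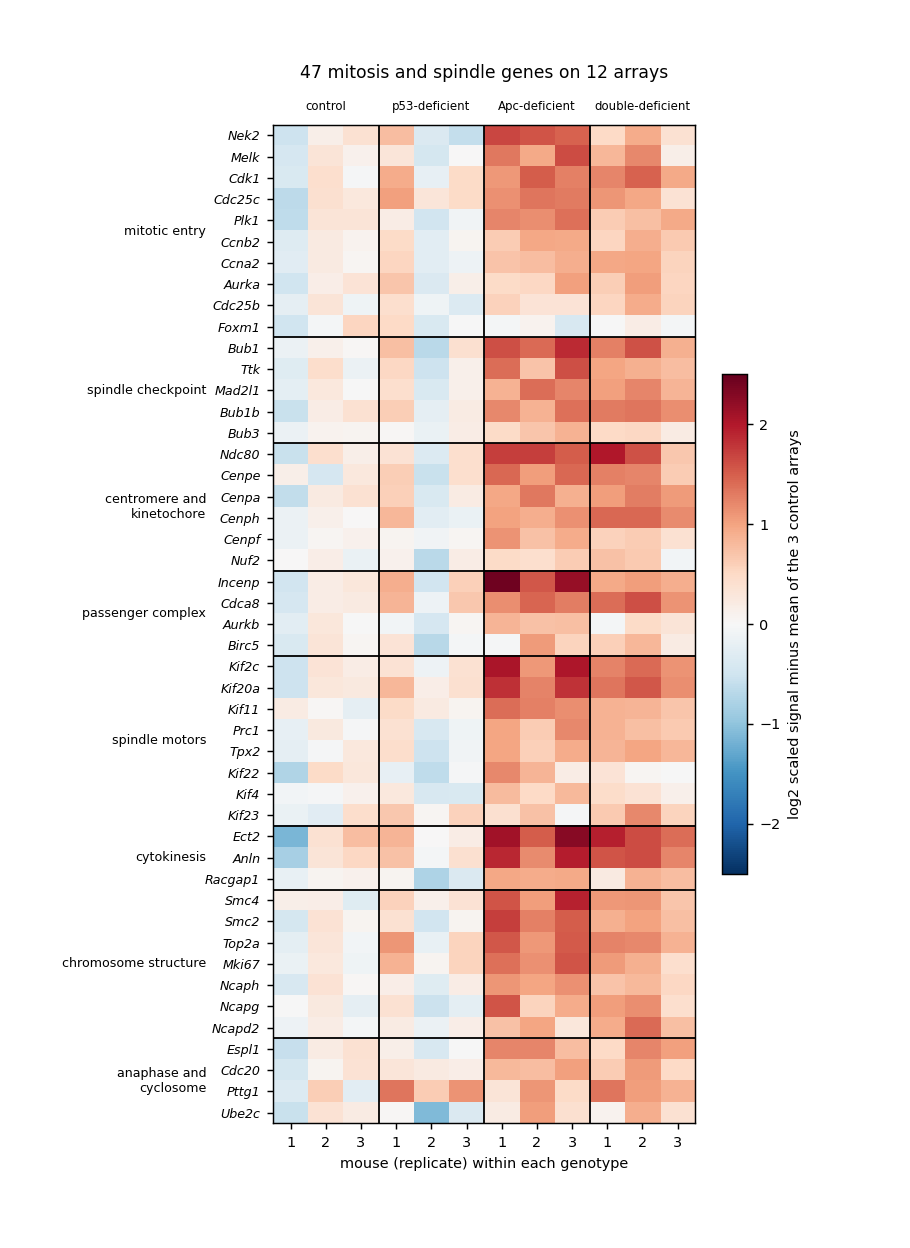
Log2 scaled signal of each of 47 of the 48 genes (rows, by role) on each of the 12 arrays (columns, by genotype and replicate), minus the mean of the 3 control arrays, with red higher and blue lower. The Apc-deficient and double-deficient arrays are red for nearly all genes, the row of Foxm1 shows no genotype apart, and control replicate 1 and p53-deficient replicate 2 are the palest or bluest arrays of their genotypes.

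Genes of mitotic entry rose in 8 of 11 cases with Apc loss alone and in 3 of 11 with combined loss. Of all probe sets, 15.7% and 8.9% were called higher, and these shares apply to the other role groups below as well. Cdk1, the kinase that starts mitosis, read 559, 978 and 720 in control, 1543, 2083 and 1747 in Apc-deficient and 1699, 2025 and 1417 in double-deficient intestines, so that both Apc-null genotypes stood above control. It rose by 2.43-fold and 2.31-fold (1.28 ± 0.31, adjusted p = 0.014; 1.21 ± 0.31, adjusted p = 0.029). Cyclin A2 (Ccna2), the partner of Cdk1 and Cdk2, read 820, 1172 and 1029 in control against 1632, 1700 and 1863 in Apc-deficient and 1951, 1981 and 1465 in double-deficient intestines, again without overlap (0.80 ± 0.25, adjusted p = 0.04; 0.84 ± 0.25, adjusted p = 0.048). Of 23 alternative settings, Cdk1 lost its call in 3 and 6, and Ccna2 in 14 and 16.

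Nek2, a kinase that helps to separate the centrosomes, read 1030, 960 and 890 in Apc-deficient intestines against 224, 357 and 419 in control, 549, 252 and 214 in p53-deficient and 453, 615 and 418 in double-deficient intestines. Only the Apc-deficient arrays stood clear of all the rest for this probe set (1.57 ± 0.36, adjusted p = 0.011), and in double-deficient intestines the difference from control did not pass (0.60 ± 0.36, adjusted p = 0.27). The kinases Plk1 and Melk, the phosphatase Cdc25c, which activates Cdk1, and cyclin B2 (Ccnb2) were also called in Apc-deficient intestines, at log2 differences of 1.25, 1.30, 1.26 and 0.85. Cdc25b, a related phosphatase, and Aurka, a kinase of the spindle poles, had differences of 0.42 and 0.68 (adjusted p = 0.23 and 0.14).

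Foxm1, a transcription factor that drives many genes of this set, was the exception. It read 181, 249 and 373 in control, 246, 271 and 193 in Apc-deficient, 363, 197 and 255 in p53-deficient and 254, 293 and 248 in double-deficient intestines. Every genotype overlapped with the other 3. Its difference was −0.13 ± 0.30, adjusted p = 0.78, in Apc-deficient (95% interval −0.79 to 0.54) and 0.05 ± 0.30, adjusted p = 0.93, in double-deficient intestines (95% interval −0.62 to 0.71), and the sign depended on which arrays, probe sets or scaling were used.

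All 5 genes of the spindle checkpoint rose in Apc-deficient intestines and 3 rose in double-deficient intestines. Bub1, a checkpoint kinase, read 148, 179 and 168 in control, 499, 438 and 595 in Apc-deficient and 392, 495 and 303 in double-deficient intestines. These groups did not overlap with control (1.63 ± 0.34, adjusted p = 0.0077; 1.24 ± 0.34, adjusted p = 0.036). Mad2l1, the inhibitor of Cdc20, read 520, 737 and 616 in control against 1126, 1627 and 1445 in Apc-deficient and 1259, 1447 and 1112 in double-deficient intestines (1.16 ± 0.26, adjusted p = 0.0094; 1.03 ± 0.26, adjusted p = 0.026), also without overlap. Bub1b, which works with Mad2l1, rose by 2.22-fold and 2.41-fold (adjusted p = 0.017 and 0.02). Bub3, the binding partner of Bub1, read 1151, 1355 and 1348 in control and 1789, 2065 and 2337 in Apc-deficient intestines, and was called there (0.68 ± 0.20, adjusted p = 0.028) but not in double-deficient intestines (0.41 ± 0.20, adjusted p = 0.17). The checkpoint kinase Ttk rose in Apc-deficient intestines (1.24 ± 0.32, adjusted p = 0.019).

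Of the centromere and kinetochore genes, 5 of 6 rose in Apc-deficient and 3 of 6 in double-deficient intestines. Cenpa, the histone H3 variant that marks centromeres, read 323.1, 580 and 646 in control, 961, 1241 and 917 in Apc-deficient and 1018, 1196 and 1033 in double-deficient intestines, with no overlap with control (1.06 ± 0.31, adjusted p = 0.031; 1.13 ± 0.31, adjusted p = 0.037). Cenpf, a kinetochore protein, rose by 1.9-fold in Apc-deficient intestines (adjusted p = 0.0062), with a difference of 0.53 ± 0.18, adjusted p = 0.074, in double-deficient intestines. Cenph, of the inner kinetochore, had the lowest adjusted p of the set in double-deficient intestines, where it read 182, 181 and 153 against 60.6, 73.6 and 67.3 in control (1.36 ± 0.28, adjusted p = 0.013). Its double-deficient arrays lay above the 3 Apc-deficient arrays too, at 134, 126 and 147, and it was the only gene of the 48 higher without overlap in that comparison, which did not pass (0.34 ± 0.28, adjusted p = 0.57).

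Ndc80, the part of the outer kinetochore that binds microtubules, was undetected on all control and all p53-deficient arrays and detected on all 6 Apc-null arrays. Its scaled signals were 193, 194 and 166 in Apc-deficient and 235, 177 and 93.4 in double-deficient intestines. It was at least 3.15-fold and at least 2.69-fold higher than in control (adjusted p = 0.0098 and 0.029), as differences of mean log2 signals with its undetected control signals taken at their measured values. Nuf2, its partner in the same complex, differed by 0.51 ± 0.29, adjusted p = 0.21, in Apc-deficient intestines, and the motor Cenpe by 1.31 ± 0.33, adjusted p = 0.017.

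The chromosomal passenger complex held the largest single difference of the set, by a probe set that can match several transcripts or genes. Incenp, its scaffold, read 2825, 1536 and 2384 in Apc-deficient intestines and 380, 601 and 641 in control. In p53-deficient intestines it read 995, 379 and 793 and in double-deficient intestines 1018, 1090 and 988. All Apc-deficient arrays lay above the other 9, and the double-deficient arrays lay above control and met the p53-deficient range. The difference from control was 2.05 ± 0.37, adjusted p = 0.004, or 4.13-fold, in Apc-deficient and 0.97 ± 0.37, adjusted p = 0.097, in double-deficient intestines. Cdca8 (borealin) rose in both, reading 588, 901 and 928 in control, 1770, 2167 and 1912 in Apc-deficient and 2066, 2421 and 1714 in double-deficient intestines (1.30 ± 0.29, adjusted p = 0.01; 1.37 ± 0.29, adjusted p = 0.015). Aurkb, the kinase of the complex, read 251, 367 and 299 in control and 546, 499 and 508 in Apc-deficient intestines, where it rose (0.78 ± 0.22, adjusted p = 0.028). At 292, 421 and 380 in double-deficient intestines it overlapped with control (0.25 ± 0.22, adjusted p = 0.45). Birc5 (survivin) overlapped with control in both and differed by 0.54 ± 0.35 and 0.55 ± 0.35 (adjusted p = 0.28 and 0.3).

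Among the 8 spindle motors and microtubule proteins, 6 rose with Apc loss alone and 4 with combined loss. Kif11, which pushes the spindle poles apart, had the lowest adjusted p of the set in Apc-deficient intestines. It read 290, 256 and 217 in control, 352, 297 and 264 in p53-deficient, 461, 457 and 406 in double-deficient and 661, 604 and 567 in Apc-deficient intestines. The double-deficient arrays lay between the Apc-intact and the Apc-deficient arrays and met neither (1.27 ± 0.19, adjusted p = 0.002; 0.80 ± 0.19, adjusted p = 0.023). Kif2c, which takes microtubule ends apart, read 158, 286 and 256 in control, 936, 480 and 916 in Apc-deficient and 535, 605 and 492 in double-deficient intestines (1.72 ± 0.32, adjusted p = 0.0044; 1.26 ± 0.32, adjusted p = 0.026). Kif20a, a motor of cytokinesis, rose by 3.07-fold and 2.55-fold.

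Prc1, which bundles the microtubules of the spindle midzone, read 371, 511 and 420 in control and 857, 668 and 988 in Apc-deficient intestines, where it rose (0.94 ± 0.25, adjusted p = 0.02). In double-deficient intestines it read 785, 727 and 677 without passing (0.76 ± 0.25, adjusted p = 0.062). Tpx2, which activates Aurka on the spindle, rose in both genotypes by the probe set used (0.84 ± 0.26, adjusted p = 0.036; 0.89 ± 0.26, adjusted p = 0.043). Kif22, a motor that binds chromosomes, read 651, 1535 and 1331 in control, 2518, 1991 and 1257 in Apc-deficient and 1398, 1144 and 1086 in double-deficient intestines and overlapped with control in both (0.75 ± 0.36, adjusted p = 0.14; 0.13 ± 0.36, adjusted p = 0.83). Kif23, a motor of the midzone, read 338, 309 and 514 in control against 497, 626 and 371 in Apc-deficient and 594, 869 and 553 in double-deficient intestines (0.37 ± 0.30, adjusted p = 0.39; 0.80 ± 0.30, adjusted p = 0.092).

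All 3 cytokinesis genes rose in Apc-deficient intestines. Ect2, which activates RhoA at the site of division, read 158, 452 and 597 in control, 1494, 991 and 1690 in Apc-deficient and 1343, 1089 and 916 in double-deficient intestines. Control replicate 1 was far below the other 2 control arrays, and neither Apc-null genotype overlapped with control (1.96 ± 0.45, adjusted p = 0.011; 1.66 ± 0.45, adjusted p = 0.035). The latter was the largest difference of the set in double-deficient intestines. Anln (anillin), the scaffold of the contractile ring, read 116, 260 and 295 in control against 765, 470 and 809 in Apc-deficient and 613, 642 and 480 in double-deficient intestines (1.68 ± 0.37, adjusted p = 0.0093; 1.47 ± 0.37, adjusted p = 0.026), with control replicate 1 again the lowest array. Racgap1, a partner of Ect2 and Kif23, read 350, 421 and 430 in control and 776, 758 and 774 in Apc-deficient intestines (0.95 ± 0.25, adjusted p = 0.02), and 469, 727 and 676 in double-deficient intestines (0.62 ± 0.25, adjusted p = 0.11).

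For chromosome structure, 6 of 7 genes rose in Apc-deficient and 3 of 7 in double-deficient intestines. The arrays of both genotypes lay above control without overlap for all 7. By that rule 23.4% of all probe sets were higher after Apc loss alone and 23% after combined loss. Top2a, the topoisomerase that untangles sister chromatids, read 983, 1425 and 1107 in control, 2493, 1023 and 1699 in p53-deficient, 3402, 2457 and 3358 in Apc-deficient and 2746, 2670 and 2114 in double-deficient intestines. The p53-deficient arrays overlapped with all 3 other genotypes, and the Apc-null arrays lay above control (1.39 ± 0.31, adjusted p = 0.01; 1.11 ± 0.31, adjusted p = 0.039). Mki67 (Ki-67), which coats mitotic chromosomes and is the common marker of dividing cells, read 831, 1107 and 865 in control against 2405, 2049 and 2769 in Apc-deficient and 1944, 1716 and 1243 in double-deficient intestines (1.37 ± 0.26, adjusted p = 0.0053; 0.79 ± 0.26, adjusted p = 0.065). Among the condensin subunits, Smc2 read 491, 848 and 697 in control, 2192, 1593 and 1891 in Apc-deficient and 1234, 1326 and 1109 in double-deficient intestines (1.50 ± 0.27, adjusted p = 0.0043; 0.88 ± 0.27, adjusted p = 0.053). Smc4, its partner, rose in both (adjusted p = 0.0035 and 0.036), and Ncapg and Ncaph passed in Apc-deficient intestines (adjusted p = 0.043 and 0.0089) with adjusted p = 0.095 and 0.073 in double-deficient intestines. Ncapd2 passed in double-deficient intestines (1.03 ± 0.25, adjusted p = 0.023) and not in Apc-deficient intestines (0.67 ± 0.25, adjusted p = 0.067).

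Of the genes of anaphase and the cyclosome, 2 of 4 rose in Apc-deficient and 1 of 4 in double-deficient intestines. Of all probe sets, 15.7% and 8.9% were called higher. Cdc20, the activator of the cyclosome, read 746, 1067 and 1312 in control, 1783, 1739 and 2065 in Apc-deficient and 1584, 2129 and 1424 in double-deficient intestines (0.87 ± 0.24, adjusted p = 0.024; 0.73 ± 0.24, adjusted p = 0.064). Espl1 (separase) rose in Apc-deficient intestines (1.07 ± 0.30, adjusted p = 0.026), and Ube2c, the ubiquitin-conjugating enzyme of the cyclosome, overlapped with control in both genotypes (0.56 ± 0.37 and 0.46 ± 0.37).

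Pttg1 (securin), the inhibitor of separase, was the gene of the set that stood high on the p53-null arrays. It read 1138, 2205 and 1211 in control and 1816, 3118 and 2018 in Apc-deficient intestines, 3638, 2260 and 3138 in p53-deficient and 3681, 2995 and 2650 in double-deficient intestines. The p53-null arrays of both kinds lay above all 3 control arrays, while the Apc-deficient arrays overlapped with every other genotype. It was called in double-deficient intestines (1.09 ± 0.32, adjusted p = 0.044) and in neither Apc-deficient (0.64 ± 0.32, adjusted p = 0.16) nor p53-deficient intestines (1.03 ± 0.32, adjusted p = 0.18, 95% interval 0.33 to 1.73).

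**Figure D2:**
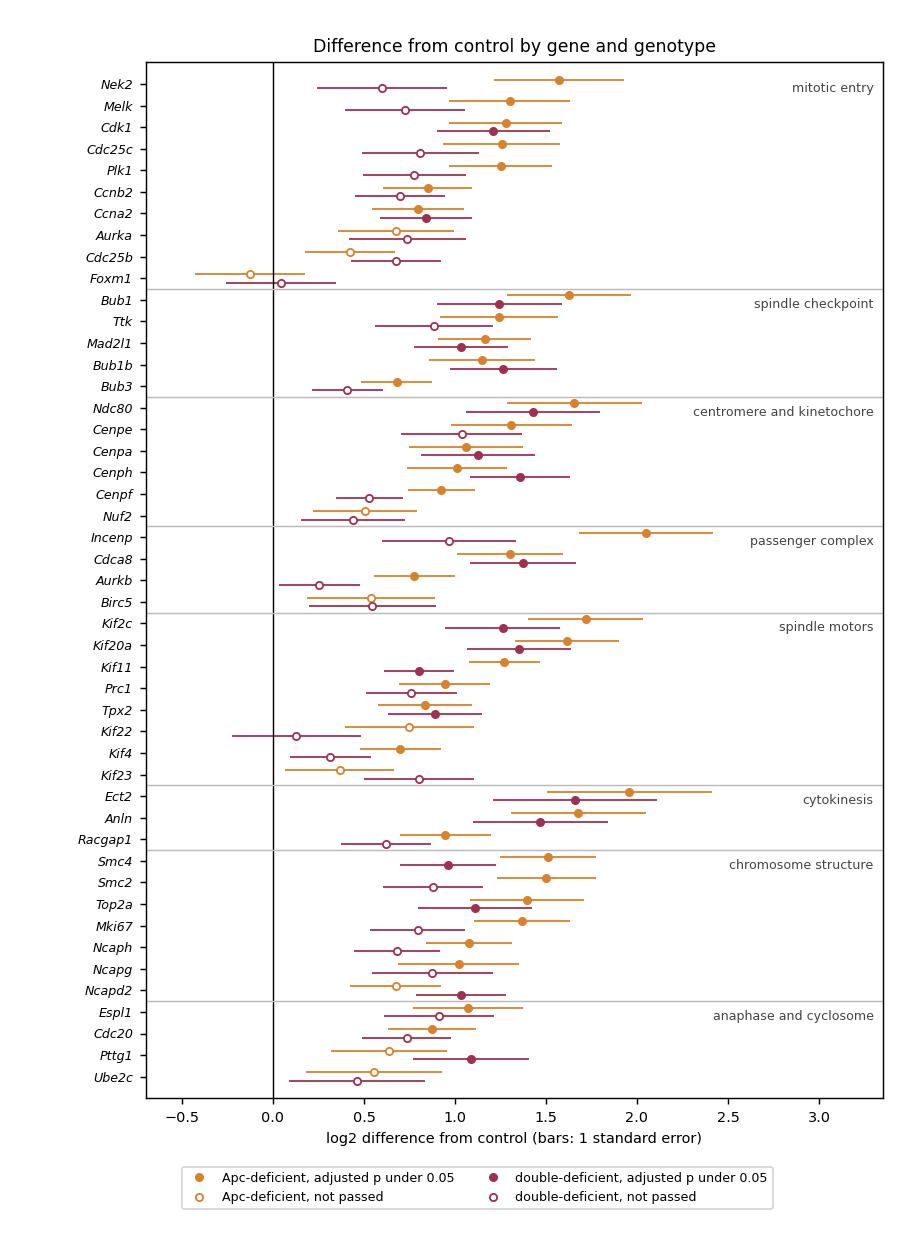
Log2 difference from control of 47 of the 48 genes (rows, by role) in Apc-deficient and double-deficient intestines, with bars of 1 SE and filled points for an adjusted p under 0.05. With the scaling used, all points lie above 0 except Foxm1 in Apc-deficient intestines at −0.13, and the range runs to 2.05 for Incenp in Apc-deficient intestines.

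Loss of p53 alone moved no gene of the set past the threshold. In p53-deficient against control intestines limma called 0 of 48, where 0.176% of all probe sets passed upward and 0.168% downward, and SAM called 0 as well, where it called 0.149% of all probe sets. At an unadjusted p under 0.05 there was 1 gene, Pttg1, higher, where 8.15% of all probe sets were higher and 7.25% lower by that rule. It was also the only gene whose arrays did not overlap, against 14.9% of all probe sets higher without overlap. The median log2 difference was 0.086, against 0.053 over all probe sets, with 32 genes above 0 and 16 below. Its sign was not stable. The median was −0.038 after quantile normalisation, −0.0187 in the deposited normalised table and −0.53 with no scaling, where the median of all probe sets was −0.56, and leaving out 1 array at a time gave −0.0935 to 0.27. The intervals were wide. The median SE over the 48 genes was 0.30 on the log2 scale, and the p53-deficient arrays spread more than those of the Apc-null genotypes, with a median coefficient of variation of 28.2% against 15.7% for Apc-deficient arrays and 16.2% for double-deficient ones. Control arrays had 25.5%.

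Loss of p53 on top of Apc loss was tested by double-deficient against Apc-deficient intestines, which share no array with the comparison above. Here limma and SAM called 0 of 48, where 0.204% of all probe sets passed upward and 0.0908% downward. With p left unadjusted, 6 genes fell under 0.05, all lower in double-deficient intestines, where 9.26% of all probe sets were lower and 7.44% higher by that rule. The arrays did not overlap for 13 genes that were lower and for 1 that was higher, against 12.5% and 8.99% of all probe sets. Of the 48 genes 35 were below 0, with a median of −0.25 against −0.044 over all probe sets. The median was −0.055 after quantile normalisation, −0.0806 in the deposited normalised table and 0.18 with no scaling, where the median of all probe sets was 0.38.

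Incenp and Nek2 were farthest apart in this comparison. Incenp differed by −1.08 ± 0.37, adjusted p = 0.19 (95% interval −1.89 to −0.27) and Nek2 by −0.97 ± 0.36, adjusted p = 0.21 (95% interval −1.76 to −0.18). For both genes every double-deficient array was below every Apc-deficient array. Kif11 (−0.47 ± 0.19, adjusted p = 0.26), Mki67 (−0.57 ± 0.26, adjusted p = 0.3) and Aurkb (−0.52 ± 0.22, adjusted p = 0.27) were also lower without overlap and without passing. At the other end, Pttg1 (0.45), Kif23 (0.43) and Ncapd2 (0.36) were above 0.

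**Figure D3:**
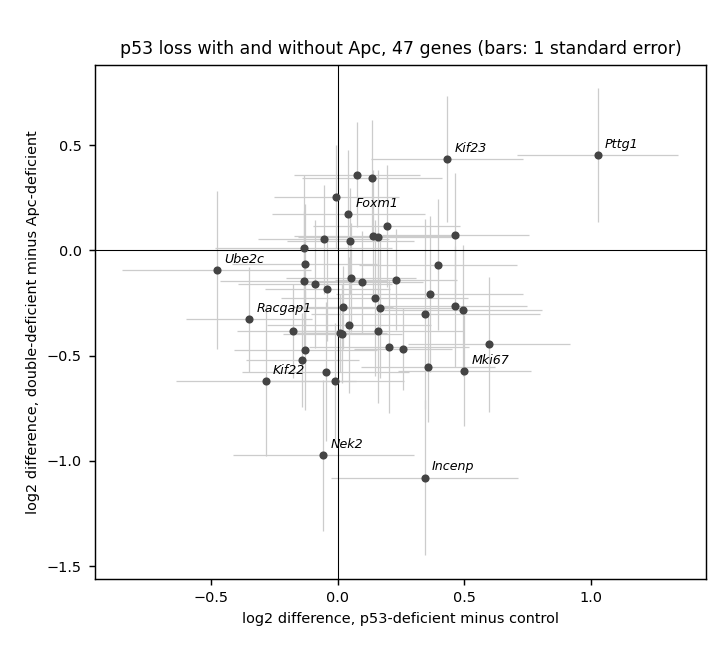
Log2 difference with p53 loss where Apc was intact (horizontal, p53-deficient minus control) and where Apc was lost (vertical, double-deficient minus Apc-deficient) for 47 of the 48 genes, with bars of 1 SE. The points centre near 0 on the horizontal axis and below 0 on the vertical axis, Pttg1 lies at 1.03 and 0.45, and Incenp is lowest at −1.08.

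Whether the combined loss differed from the sum of the separate losses was tested as an interaction, and limma called 0 of 48, where 0.00275% of all probe sets passed upward and 0.00826% downward. Unadjusted, 6 genes fell under 0.05, all negative, where 8.93% of all probe sets were negative and 5.89% positive by that rule. The median was −0.37, against −0.064 over all probe sets. The interaction was lowest for Incenp at −1.42 ± 0.52, adjusted p = 0.26, and reached −1.07 ± 0.37, adjusted p = 0.24, for Mki67. It was 0.034 as a median after quantile normalisation and 0.67 with no scaling, where the median of all probe sets was 0.97 and 2 genes were called, with 12.2% of all probe sets.

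Apc loss in mice without p53, double-deficient against p53-deficient intestines, shares no array with Apc-deficient against control. Of the 48 genes 6 were higher and 0 lower, where 4.62% of all probe sets passed upward and 4.45% downward. The 6 were Cenph (1.22 ± 0.28, adjusted p = 0.022), Racgap1 (0.97 ± 0.25, adjusted p = 0.036), Ncapd2 (0.96 ± 0.25, adjusted p = 0.038), Mad2l1 (0.98 ± 0.26, adjusted p = 0.039), Bub1b (1.07 ± 0.29, adjusted p = 0.045) and Tpx2 (0.94 ± 0.26, adjusted p = 0.046). All 48 differences were above 0, with a median of 0.78 against −0.014 over all probe sets, and the arrays did not overlap for 33 genes, all higher, against 16.7% of all probe sets.

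These 6 calls rested on single arrays. There were 12, 2 and 1 calls without control replicates 1, 2 and 3, 1, 0 and 1 without double-deficient replicates 1, 2 and 3, and 0 without p53-deficient replicate 2 or 3. In the same order, 8.63%, 7.6% and 7.31% of all probe sets were called, then 7.23%, 3.04% and 4.17%, then 3.54% and 5.15%. The control arrays enter only through the shared estimate of the spread. There were 0 calls without both arrays high in pancreas transcripts, where 1.79% of all probe sets were called.

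Set beside each other, the comparisons of Apc loss with and without p53 gave 47 of the 48 genes above 0 in both, where 34.5% of all probe sets were. Arrays did not overlap, higher in both, for 31 of 48 genes, against 10.7% of all probe sets. By mean scaled signal, 45 of the 48 genes had both Apc-null genotypes above both Apc-intact genotypes. The highest mean was in Apc-deficient intestines for 36 genes and in double-deficient intestines for 11, and the lowest was in control for 33 and in p53-deficient intestines for 14. The orders of means were not counted over all probe sets, so these counts do not show how unusual the orders are. Foxm1 was the gene with neither Apc-null genotype on top, its highest mean being in p53-deficient intestines.

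**Figure D4:**
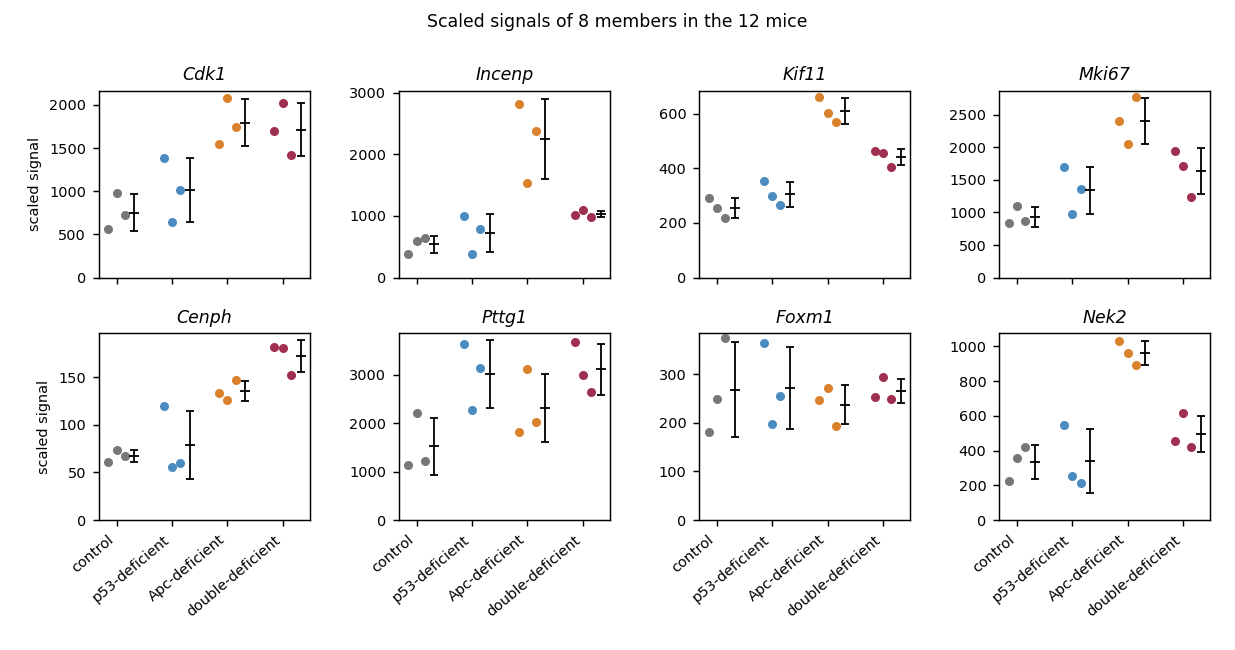
Scaled signal (linear, from 0) of 8 of the 48 genes in each of the 12 mice, with the mean and SD of 3 mice as bars at the right of each genotype. Incenp, Kif11 and Nek2 show the Apc-deficient mice above all others, Cenph shows the double-deficient mice highest, Pttg1 is high in both p53-null genotypes, and Foxm1 overlaps throughout.

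The genes moved together from array to array within a genotype. Control replicate 1 was the lowest of its 3 arrays for 42 of the 48 genes, p53-deficient replicate 2 for 44 and double-deficient replicate 3 for 40, and p53-deficient replicate 1 was the highest for 41. Within Apc-deficient intestines the lowest array was replicate 2, for 28 genes. The median log2 signal of the set was 8.24, 8.69 and 8.73 in control, 8.99, 8.28 and 8.61 in p53-deficient, 9.69, 9.43 and 9.75 in Apc-deficient and 9.28, 9.51 and 9.24 in double-deficient intestines. The 6 Apc-null arrays thus lay above the 6 others.

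Other cell types moved with some of these arrays, and their part in the values of the set was not tested. The markers of small intestinal epithelium moved too. In Apc-deficient against control intestines 3 of the 8 were called higher, where 15.7% of all probe sets were, with a median of 0.55. In p53-deficient intestines 7 were above 0, with a median of 0.51 and 0 called. In double-deficient against control intestines 1 was called lower, where 6.04% of all probe sets were, and the median was 0.20. In double-deficient against Apc-deficient intestines all 8 were below 0, with a median of −0.42 against −0.25 for the set. In the interaction all 8 were below 0, with a median of −0.86 against −0.37 for the set. In both, 0 of the 8 were called. At an unadjusted p under 0.05 by limma, 4 were lower in the first, where 9.26% of all probe sets were. In the interaction all 8 were negative by that rule, where 8.93% of all probe sets were. The 8 smooth muscle genes had median log2 signals of 7.50 on control replicate 1 and 8.45 on p53-deficient replicate 2, the lowest arrays of the set in their genotypes, against 9.42 to 10.46 on the other 10. Double-deficient replicate 3, lowest for 40 genes, was the one with pancreas transcripts, at a summed scaled signal of 29554 against 1195 and 1882 in the other 2 double-deficient arrays. Control replicate 3, with a sum of 79904, was the lowest control array for 4 genes. All 8 crypt stem cell markers rose in both Apc-null genotypes, where 15.7% and 8.9% of all probe sets did. Array medians were 9.10 to 9.88 in Apc-deficient and 9.68 to 9.70 in double-deficient intestines. In control they were 7.40 to 7.46 and in p53-deficient intestines 7.24 to 7.67. Of 9 enterocyte markers measured, 3 fell in each Apc-null genotype, where 10.7% and 6.04% of all probe sets did. Array medians were 11.09 to 11.98 and 11.43 to 11.85 against 12.39 to 12.49 in control. In p53-deficient intestines they were 12.66 to 13.19, above control, with 0 of the 9 passing. In double-deficient against p53-deficient intestines 6 of the 9 were lower, where 4.45% of all probe sets were. Of 6 Paneth cell genes measured, 5 rose after Apc loss alone and 4 after combined loss, where 15.7% and 8.9% of all probe sets did. Their median log2 differences were 1.76 and 1.71. Their array medians were 12.57 to 13.22 and 12.708 to 13.002 against 10.19 to 11.54 in control. In p53-deficient intestines 0 of the 6 passed, with array medians of 11.87 to 13.37.

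Lymphocytes also divide. Of their markers 3 of 7 T lymphocyte, 1 of 6 B lymphocyte and 1 of 5 germinal centre genes were called lower in Apc-deficient intestines, where 10.7% of all probe sets were, and 4, 0 and 1 in double-deficient intestines, where 6.04% were. Array medians of 7 T lymphocyte markers were 6.35 to 7.57 in Apc-deficient and 6.15 to 7.08 in double-deficient intestines against at least 7.63 on every control array. Those of 6 B lymphocyte markers were 4.88 to 5.63 and 5.09 to 6.93 against 5.96 to 7.78. Control replicate 1 had 7.78 against 6.19 and 5.96, and double-deficient replicate 3 had 6.93 against 5.34 and 5.09. Both were the lowest arrays of the set in their genotypes. Germinal centre markers, 5 genes, had 5.44 to 5.75 and 4.80 to 5.63 against 5.87 to 6.79. Many of these signals were undetected. At least 1 array detected 7 T lymphocyte, 3 B lymphocyte and 4 germinal centre markers, and all 12 arrays detected 3, 1 and 0. Whether lymphocytes contributed to the values of the set was not tested. None of 7 red blood cell genes passed the screen. The headers of the detection columns carry a code that holds 1 genotype each, and a letter code that divides the arrays by p53 status. If these mark runs, run and genotype cannot be told apart.

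**Figure D5:**
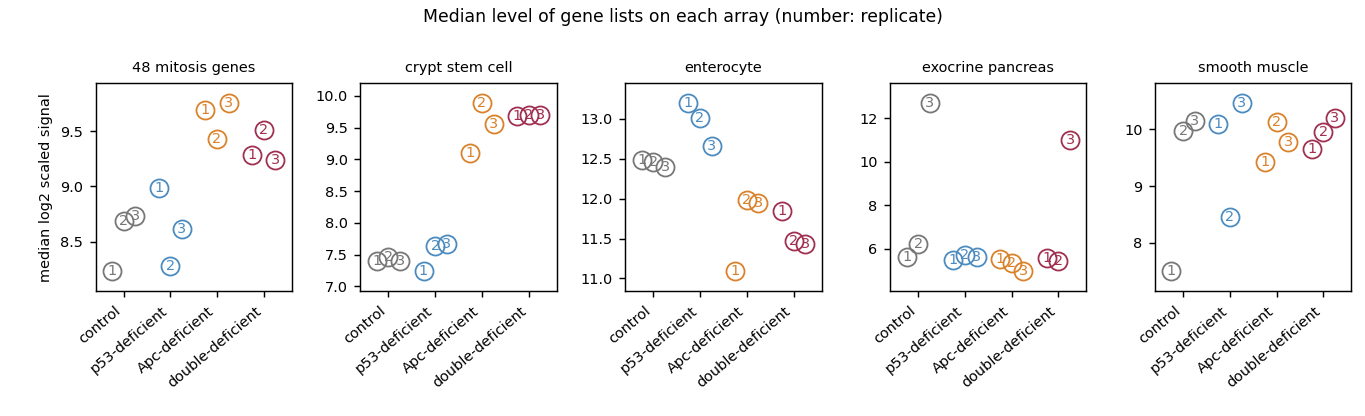
Median log2 scaled signal on each array (circles, numbered by replicate) of the 48 mitosis genes and of marker lists for crypt stem cells, enterocytes, exocrine pancreas and smooth muscle, by genotype, each panel with its own axis. The mitosis genes and crypt markers are higher on all 6 Apc-null arrays, pancreas is high on control replicate 3 and double-deficient replicate 3, and smooth muscle is low on control replicate 1 and p53-deficient replicate 2.

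A further 68 mitosis genes were listed outside the set, 66 of them measured. In Apc-deficient intestines 37 were higher, where 15.7% of all probe sets were, 1, Cit, was lower (−0.69 ± 0.21, adjusted p = 0.038), and 28 did not pass. The Cit probe set can match several transcripts or genes. It was detected on 0 control and 2 Apc-deficient arrays, so its difference shows no fall from a detected level. In double-deficient intestines 22 were higher, where 8.9% of all probe sets were, 0 were lower and 44 did not pass, and in p53-deficient intestines 0 passed. Their medians were 0.93, 0.67 and 0.0086. Stmn1 (stathmin), which destabilises microtubules, read 1862, 2502 and 1805 in control, 3282, 5587 and 5154 in Apc-deficient and 5888, 5374 and 3914 in double-deficient intestines (1.16 ± 0.28, adjusted p = 0.013; 1.29 ± 0.28, adjusted p = 0.016). The cohesin subunits Rad21 and Smc1a rose in Apc-deficient intestines (1.23 ± 0.22, adjusted p = 0.0042; 1.16 ± 0.23, adjusted p = 0.006) and differed without passing in double-deficient intestines (0.51 ± 0.22, adjusted p = 0.14; 0.57 ± 0.23, adjusted p = 0.12).

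Of 13 regulators of mitotic transcription measured, 6 rose with Apc loss alone and 1 with combined loss, where 15.7% and 8.9% of all probe sets did, with median log2 differences of 0.25 and 0.29. The 3 with the highest signal were Rbbp4, Cdkn1a and Nfyc. Rbbp4, a subunit of the DREAM and MuvB complexes, read 1379, 2028 and 1793 in control, 3368, 3896 and 4848 in Apc-deficient and 4340, 3564 and 2759 in double-deficient intestines and rose in both (1.22 ± 0.26, adjusted p = 0.0086; 1.03 ± 0.26, adjusted p = 0.028). Cdkn1a (p21), a p53 target that inhibits the cyclin-dependent kinases, read 1609, 2339 and 2370 in control, 2396, 1607 and 1522 in p53-deficient, 1069, 2241 and 1281 in Apc-deficient and 1162, 1239 and 937 in double-deficient intestines. Its double-deficient arrays lay below control without passing (−0.91 ± 0.31, adjusted p = 0.07), and it overlapped with control in p53-deficient intestines (−0.20 ± 0.31, adjusted p = 0.78). Nfyc, a subunit of the factor that binds CCAAT, differed by 0.25 ± 0.21, adjusted p = 0.42, in Apc-deficient intestines.

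Probe sets of a gene did not always move alike. Among the 30 genes with several screened probe sets, 9 had differences of both signs in double-deficient against control intestines: Bub1, Bub1b, Cenpa, Cenpf, Kif23, Kif2c, Nek2, Smc2 and Tpx2. For Tpx2, 2 probe sets rose in Apc-deficient intestines, by 0.84 and 0.82, while the other 2 fell by 1.22 and 1.32 (adjusted p = 0.0077 and 0.0092). For Nek2, 2 rose by 1.57 and 1.50, and the third fell by 1.01 (adjusted p = 0.011). A second Cenpa probe set fell by 1.66 (adjusted p = 0.010) and a Bub1b probe set fell by 1.03 in double-deficient intestines (adjusted p = 0.041). Where these probe sets lie in the transcripts was not analysed here, and over all 102 screened probe sets of the genes 61 were called in Apc-deficient and 40 in double-deficient against control intestines.

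By promoter, of the 31 genes called in Apc-deficient intestines that had a promoter entry, 25 held CCAAT and 23 TTTGAA, and 3 held neither. Of the 9 not called, 6 held CCAAT, 5 TTTGAA and 3 neither. The 6 genes with no match at all were Birc5, Mad2l1, Melk, Ncaph, Nuf2 and Pttg1, of which Mad2l1, Melk and Ncaph were called. Ube2c and Kif22, which were not called, held 6 and 2 CCAAT and 1 and 2 TTTGAA, while Cdk1 and Ect2, which rose in both Apc-null genotypes, held 3 CCAAT and 2 TTTGAA each.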

How the data were processed

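The authors deposited a signal for every probe set of 12 Affymetrix MOE430_2 arrays, a linear intensity not yet scaled between arrays, together with a detection p-value. Another deposited file, of 34271 probe sets, holds a normalised score, the log signal centred and divided by its standard deviation on each array. No source used here names the expression software. Detection columns of double-deficient arrays name no mouse, and were used per group.

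Of 45037 probe sets other than AFFX controls, 36336 had a detection p under 0.2 on 1 array or more. Signals below 1 were raised to 1, and log2 values had the mean of their array subtracted. Means of the 4 genotypes were fitted by limma 3.58.1 (R 4.3.3; 8 residual degrees of freedom) with Benjamini-Hochberg adjustment over all probe sets and calls at 0.05, and the code was tested on simulated data. Detected means a detection p under 0.05. For a gene undetected on all arrays of a group, the fold is a bound against the higher, on each array, of its signal and the lowest detected signal. Intervals are 95% intervals of the fit. SAM was rewritten with 20 permutations. Each array is 1 mouse, and 3 per genotype limit the precision. An exact permutation test of 3 against 3 cannot go below p = 0.1, so none was run.

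Symbols came from a probe table. Where it had no entry, the description of the probe set gave the symbol directly (2575 probe sets) or through a RefSeq synonym (2701). This held for 1 of the 48 genes and for the p53 probe sets. Of the 48 genes, 1 is counted in totals and not reported here on its own. Of their probe sets 11 (_s_at, _x_at) can match several transcripts or genes, those of Incenp, Nek2 and Pttg1 among them. The genes, lists and motifs were chosen with earlier results of these data known. Full values were due for the 2 genes of highest signal per role, the 3 largest and 3 smallest differences from control in each Apc-null genotype, genes called in p53-deficient against control, double-deficient against Apc-deficient or the interaction, genes whose probe sets disagree in sign, and up to 3 genes of highest signal in other lists. Cit, Cenph and others of the set with values were added after these were seen. Alternatives were other scalings, screens, floors, variance models, tests, thresholds and probe sets, and leaving out each array.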

Additional observations from a re-analysis of the deposited data

How the results depend on the processing

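No paired analysis was possible because the labels carry mouse codes and no replicate numbers shared between genotypes. Over 26 alternative settings, 127 values of the median over the 48 genes moved by less than the spread between replicates and 10 by more, while 108 counts of calls stayed within a ratio of 3 to 2 of the count given, 32 moved further, 5 fell to 0 and 1 rose from 0. In Apc-deficient against control intestines 25 genes were called after quantile normalisation (23.1% of all probe sets called), 10 with no scaling between arrays (34.0%), 25 when only the compared genotypes entered the fit (15.3%), 25 without control replicate 3 and double-deficient replicate 3 (14.8%), and 61 when all probe sets of the genes were counted. Leaving out 1 array at a time gave 20 to 38. In double-deficient against control intestines 4 were called with no scaling (9.14%) and 13 with only the compared genotypes (13.4%). There was 1 without control replicate 3 and double-deficient replicate 3 (2.17%). With the false discovery rates of the study applied to limma there were 4 (6.35%), and over all probe sets 40. Leaving out 1 array gave 0 to 21. In double-deficient against p53-deficient intestines the count was 12 after quantile normalisation (10.7%), 35 with no scaling (11.6%), 12 in the deposited normalised table (11.8%), 1 with no screen (5.7%), 19 with detection on at least 3 arrays (18.2%), 20 with a floor of 20 (12.5%), 20 with a variance trend (12.5%), 1 with only the compared genotypes (5.98%), 2 by SAM (8.01%), 0 without control replicate 3 and double-deficient replicate 3 (1.79%), and 12 over all probe sets. Leaving out 1 array gave 0 to 12. With no scaling the interaction called 2 genes (12.2% of all probe sets).

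Directions turned for Foxm1, Kif22 and, with no scaling, for 4 genes in Apc-deficient intestines, all of them not called. Foxm1 in double-deficient against control intestines was −0.1165 after quantile normalisation, −0.2017 with no scaling, −0.02573 in the deposited table and −0.07309 with detection on at least 3 arrays, and leaving out 1 array gave −0.2054 to 0.3168. In Apc-deficient against control intestines it was 0.1048 as a median over its probe sets and 0.1441 without control replicate 3 and double-deficient replicate 3, and leaving out 1 array gave −0.3781 to 0.1441. Kif22 in double-deficient intestines was −0.1183 with no scaling and −0.04886 in the deposited table, with −0.2498 to 0.3692 on leaving out 1 array. With no scaling Cdc25b was −0.2505, Birc5 −0.1351, Kif23 −0.3045 and Pttg1 −0.03515 in Apc-deficient intestines. As medians over probe sets, called Tpx2 was −0.1966 in Apc-deficient and called Cenpa −0.01507 in double-deficient intestines. The cause was not tested, beyond the fewer arrays or added probe sets that define some settings.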
